A study of Mus musculus with 6 samples.

Results

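H3K4me3 regions lying at the boundaries of long noncoding RNA (lncRNA) genes, and away from protein-coding genes, were examined in CD8+ lymphocytes that had infiltrated tumours. H3K4me3, trimethylation of lysine on the tail of histone H3, is found around active transcription start sites, and it was profiled by chromatin immunoprecipitation and sequencing after digestion with micrococcal nuclease. The mice had the C57BL/6 background and carried E0771, a mammary tumour line of that strain. The first group was wild type (WT), and in the second (KO) Cre recombinase had deleted Atg5, whose product is needed to form autophagosomes. No source used here gives the Cre driver, the age of the mice or whether mice were pooled. Each genotype had 1 H3K4me3 library, so no value below has a replicate check and no test between genotypes could be made.

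The WT list held 48525 regions on chromosomes 1 to 19 and X, and the KO list 46547. Merged with no gap they gave 58390 regions, of which 57468 were under 6000 bp wide. Of these, 2378 (4.14%) lay within 1 kb of the start or end of an lncRNA gene and more than 2.5 kb from all 21631 protein-coding genes in the RefSeq gene table of GRCm38.p6, and they are the members described here. That table holds 12697 lncRNA genes on these chromosomes and none with the general biotype ncRNA. The members touched 2172 lncRNA genes. Of the 8663 lncRNA genes with a boundary more than 3.5 kb from coding genes, 2132 (24.6%) had a member. A total of 2236 members lay at 1 lncRNA gene, 139 at 2 and 3 at 3, and 318 genes had 2 or more members, so that members are not independent of each other. The genes are mostly known by catalogue symbols alone, since 95.2% of members had a nearest gene named Gm, LOC or Rik. The widest members spanned 5763 bp (Gm14488 and Gm39782), 5732 bp (Gm31619) and 5698 bp (Gm52290), and the narrowest of 35 regions left out for their width spanned 6023 bp (Gm6559), 6030 bp (Gm9875) and 6101 bp (Gm40831).

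LncRNAs are transcripts that are not known to encode proteins, and many are made by RNA polymerase II from promoters that carry H3K4me3 as coding genes do. Some act on chromatin in cis, such as Xist, which silences an X chromosome in female cells. Others serve as hosts from which small nucleolar RNAs or microRNAs are cut, and many lie near genes of cell identity and are transcribed in the same cells. A region of H3K4me3 shows a marked boundary and is not a measure of RNA.

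The promoter of Atg5 was marked in both lists, with folds of 32.2 (WT) and 29.2 (KO), which does not check the deletion, since a mark at the promoter can remain when exons are removed. The labelled cell type was compared with marker genes first, counting a gene as marked if a region lay within 1 kb of its start or end. Of 54 T cell genes, 54 were marked in the KO list and 32 in the WT list. Cd8a and Cd3e, which encode chains of the CD8 co-receptor and of the T cell receptor complex, had no WT region, and Cd8b1 had a WT region with a fold of only 3.91. Myeloid genes were marked in 20 of 22 cases in the WT list and 18 of 22 in the KO list, epithelial and mammary tumour genes in 12 and 14 of 19, fibroblast and endothelial genes in 14 and 16 of 20, and B cell genes in 4 and 4 of 8. Among defining markers, Csf1r, Epcam, Krt8, Col1a1 and Pecam1 were marked in both lists. The library labelled WT therefore goes against its cell type label at many T cell genes (WT stands for that library throughout), and the part of cell composition in the differences below was not tested. In bulk chromatin, fewer cells with the mark and less mark per cell cannot be told apart.

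Windows of DNA at lncRNA start sites are given here for members described further on. They run from 250 bases before to 50 bases after a RefSeq start site (GRCm38.p6), are written along the strand of the gene, and have each CG dinucleotide in capitals. They were picked by name and to show the range of CG counts, so that they stand for no difference between classes, which is given further on over all windows. Snhg5 (chr9:88522848-88523147, minus strand, 36 CG) and Jpx (chrX:103493308-103493607, plus strand, 27 CG) were marked in both lists, as were Xist (chrX:103483184-103483483, minus strand, 15 CG) and Gm39932 (chr2:129182353-129182652, plus strand, 1 CG). Gm19585 (chr17:52149039-52149338, plus strand, 2 CG), Ifngas1 (chr10:118556476-118556775, minus strand, 1 CG) and Mir155hg (chr16:84712773-84713072, plus strand, 0 CG) were marked in the KO list only, and the Mir155hg window ends just before its region. Gm2109 (chr9:83691225-83691524, plus strand, 3 CG) and 4930447K03Rik (chr13:34113223-34113522, minus strand, 3 CG) were marked in the WT list only. The Jpx window lies between its 2 members and overlaps only the edge of the member that starts at 103493586. The Gm2109 window overlaps only the edge of its region, which starts at 83691493. The Ifngas1 and 4930447K03Rik windows overlap their regions in part.
Snhg5: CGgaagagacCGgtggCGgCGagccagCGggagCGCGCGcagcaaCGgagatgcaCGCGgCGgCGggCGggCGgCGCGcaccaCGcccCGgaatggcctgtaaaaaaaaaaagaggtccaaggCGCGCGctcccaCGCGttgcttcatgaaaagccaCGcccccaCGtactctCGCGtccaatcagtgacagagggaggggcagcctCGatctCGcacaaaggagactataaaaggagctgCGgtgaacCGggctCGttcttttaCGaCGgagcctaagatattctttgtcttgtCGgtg
Jpx: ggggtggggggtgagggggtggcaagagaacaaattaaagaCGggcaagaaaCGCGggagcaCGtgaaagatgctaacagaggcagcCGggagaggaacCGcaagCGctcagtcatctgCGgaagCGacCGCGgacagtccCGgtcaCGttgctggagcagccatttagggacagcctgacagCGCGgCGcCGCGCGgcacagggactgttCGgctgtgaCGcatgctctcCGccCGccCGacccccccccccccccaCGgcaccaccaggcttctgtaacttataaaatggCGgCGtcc
Xist: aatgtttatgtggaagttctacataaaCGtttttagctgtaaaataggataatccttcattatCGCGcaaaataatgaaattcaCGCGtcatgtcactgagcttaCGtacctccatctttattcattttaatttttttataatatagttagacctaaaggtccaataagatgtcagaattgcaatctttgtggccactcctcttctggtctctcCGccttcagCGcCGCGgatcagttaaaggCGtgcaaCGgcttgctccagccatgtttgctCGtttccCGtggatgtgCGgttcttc
Gm39932: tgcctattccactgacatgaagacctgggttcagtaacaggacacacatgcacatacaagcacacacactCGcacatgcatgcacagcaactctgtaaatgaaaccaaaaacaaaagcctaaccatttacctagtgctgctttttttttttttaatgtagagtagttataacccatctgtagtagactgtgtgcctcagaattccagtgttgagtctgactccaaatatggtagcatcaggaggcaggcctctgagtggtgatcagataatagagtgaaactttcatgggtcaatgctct
Gm19585: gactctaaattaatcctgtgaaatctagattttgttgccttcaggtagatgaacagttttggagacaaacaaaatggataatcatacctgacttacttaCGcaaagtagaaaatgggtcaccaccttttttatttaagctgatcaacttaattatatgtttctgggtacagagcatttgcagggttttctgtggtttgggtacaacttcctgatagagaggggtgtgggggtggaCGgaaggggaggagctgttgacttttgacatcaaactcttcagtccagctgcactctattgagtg
Ifngas1: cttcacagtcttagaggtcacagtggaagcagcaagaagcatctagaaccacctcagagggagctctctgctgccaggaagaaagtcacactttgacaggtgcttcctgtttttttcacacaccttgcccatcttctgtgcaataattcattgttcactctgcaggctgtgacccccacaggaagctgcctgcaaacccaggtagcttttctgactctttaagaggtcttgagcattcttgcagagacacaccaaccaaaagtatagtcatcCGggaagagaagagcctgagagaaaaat
Mir155hg: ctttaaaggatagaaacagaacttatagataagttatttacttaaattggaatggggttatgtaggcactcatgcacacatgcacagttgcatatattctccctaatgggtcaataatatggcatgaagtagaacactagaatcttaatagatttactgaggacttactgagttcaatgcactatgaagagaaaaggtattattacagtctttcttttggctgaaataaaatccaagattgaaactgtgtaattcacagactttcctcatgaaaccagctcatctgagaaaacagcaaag
Gm2109: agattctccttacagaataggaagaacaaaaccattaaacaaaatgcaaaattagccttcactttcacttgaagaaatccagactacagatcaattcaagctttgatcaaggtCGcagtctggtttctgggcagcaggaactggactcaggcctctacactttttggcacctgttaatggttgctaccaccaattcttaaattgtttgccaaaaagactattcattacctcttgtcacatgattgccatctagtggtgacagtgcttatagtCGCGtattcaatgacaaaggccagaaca
4930447K03Rik: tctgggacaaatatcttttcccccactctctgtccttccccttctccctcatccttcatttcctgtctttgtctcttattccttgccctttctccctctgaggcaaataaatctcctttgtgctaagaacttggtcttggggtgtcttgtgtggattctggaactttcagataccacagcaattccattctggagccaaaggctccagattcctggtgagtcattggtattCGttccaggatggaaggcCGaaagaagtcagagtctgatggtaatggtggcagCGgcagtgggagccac

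Members were shared between the lists more often than all regions, and less often than regions at coding genes. Of the 2378 members, 1548 were found in both lists (65.1%, exact 95% interval 63.1 to 67.0%), 502 in the WT list only (21.1%, 19.5 to 22.8%) and 328 in the KO list only (13.8%, 12.4 to 15.2%). Over all 57468 merged regions under 6000 bp the shares were 58%, 22.6% and 19.4%. Among 13212 regions within 1 kb of a coding gene boundary, 86.7% were in both lists, 5.00% in WT only and 8.28% in KO only. Among 15591 regions more than 2.5 kb from coding and lncRNA genes, these shares were 52.5%, 31.5% and 16.0%. Members thus lay between the coding boundaries and the gene-free regions in the share found in both lists, and the order of WT only and KO only was the other way round at coding boundaries. Intervals cover counting error only, since regions of a library are not replicates.

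**Figure D1:**
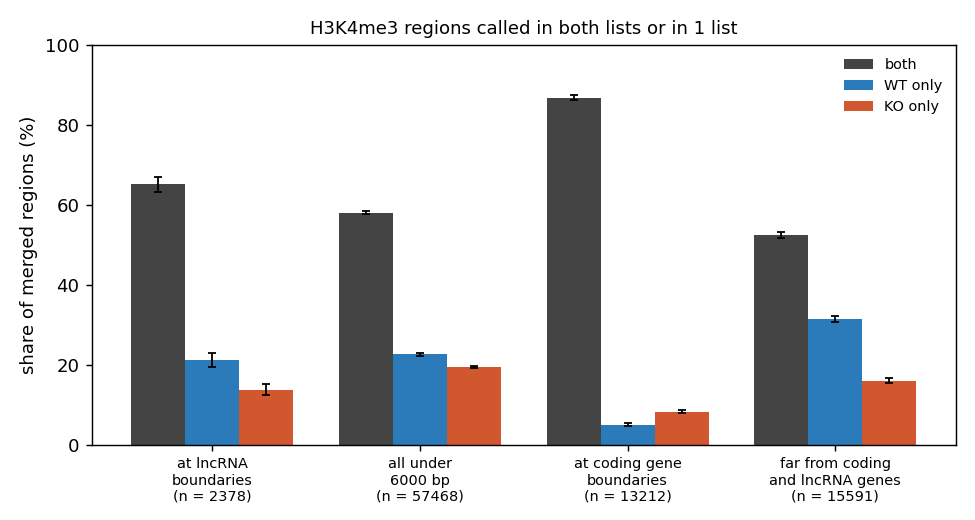
Share of merged regions (%) found in both lists, in WT only or in KO only, for the 2378 regions at lncRNA boundaries and 3 other sets of regions. Bars start at 0 and error bars are exact 95% binomial intervals; the members (65.1% in both) sit between regions at coding gene boundaries (86.7%) and regions far from genes (52.5%).

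Class went with width, as it did over all regions. Members in both lists had a median width of 1577.5 bp after merging, WT only members 549.5 bp and KO only members 794.5 bp. Of 345 members under 500 bp, 39 (11.3%) were in both lists, against 434 of 469 (92.5%) between 2000 and 4000 bp, and over all regions these shares were 6.75% and 93.6%. Among the 84 members of 4000 bp and more, 76 were in both lists, 8 in KO only and 0 in WT only, against 95.2%, 4.82% and 0% of all regions of that width. The summit reads, recovered from the deposited fold and p, give the depth behind these calls. Members in both lists had a median of 47 reads at the WT summit and 35 at the KO summit, WT only members 17 and KO only members 20, and no summit had fewer than 10 reads. A missing region therefore means that the summit fell short of the authors' threshold at this depth, not that the mark was absent. The authors' fold at the summit, a ratio to the background of the same library, had a median of 11.5 in WT and 9.48 in KO for members in both, 4.42 for WT only and 5.53 for KO only.

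The order of the sets depended on width. Between 1000 and 2000 bp 82.4% of members were in both lists, against 88.2% at coding boundaries and 79.3% far from genes. Under 500 bp the members, at 11.3%, stood above coding boundaries (6.90%) and regions far from genes (7.99%). Members were in both lists in 65.8% of cases at 2.5 to 10 kb (n = 596), in 67.1% at 10 to 50 kb (n = 1145) and in 60.9% beyond 50 kb (n = 637) from coding genes, against 56.6%, 56.0% and 47.5% of all regions at these distances. The median difference in covered length (KO minus WT) of the shared members was −164.5, −202 and −250.5 bp in these bands, against −228, −242 and −255 bp for all regions.

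Members in both lists mostly covered fewer bases in the KO list. The covered length, the number of bp under the regions of a list, had a median of 1439 bp in WT and 1224.5 bp in KO, and the median difference (KO minus WT) was −208 bp, with quartiles of −502.25 and 34.25 bp. It was longer in KO for 432 of 1548 members (27.9%) and shorter for 1115 (72.0%). Over all 33341 regions in both lists 33.7% were longer and 66.1% shorter, with a median of −146 bp. At coding boundaries the median was −33 bp, and far from genes it was −245 bp. Differences of at least 1000 bp were found in 61 members towards KO (3.94%, against 5.04% of all regions in both) and in 92 towards WT (5.94%, against 4.42%). Covered length moves with sequencing depth and with the threshold of the caller, and the files give no total depth for either library.

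**Figure D2:**
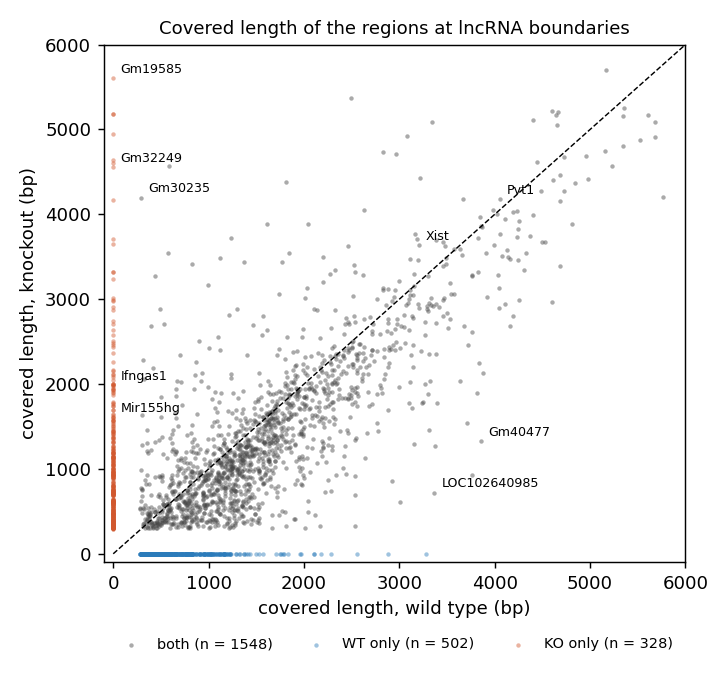
Covered length (bp) of each region at an lncRNA boundary in the WT list (x axis) and the KO list (y axis), 1 point per member, with the line of equal length dashed. Of the members in both lists 1115 lie below the line and 432 above it; the points on the axes are the 502 WT only and 328 KO only members, with Gm19585 the longest of the latter.

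The rule used starts and ends alike, and the strand of the gene told them apart where it was known. Of 2378 members, 1182 (49.7%) lay within 1 kb of a start site in the RefSeq promoter table, 614 (25.8%) lay only at the far end of a gene with a known strand, and for 582 (24.5%) a gene had no entry. Members at start sites were in both lists in 69.3% of cases (66.6 to 71.9%) and those only at far ends in 59.1% (55.1 to 63.0%), with WT only shares of 17.6% and 26.7%. The KO only shares were 13.1% and 14.2%, with overlapping intervals. In members in both lists, the summit lay downstream of the start site in 66.7% of WT and 66.3% of KO cases, at a median of 204 and 190 bp into the gene. The summits of the 2 lists lay a median of 76 bp apart, and 1012 of 1548 pairs (65.4%) lay within 150 bp. WT only summits lay downstream in 57.7% of 208 cases (50.7 to 64.5%) and KO only summits in 63.9% of 155 (55.8 to 71.4%).

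**Figure D3:**
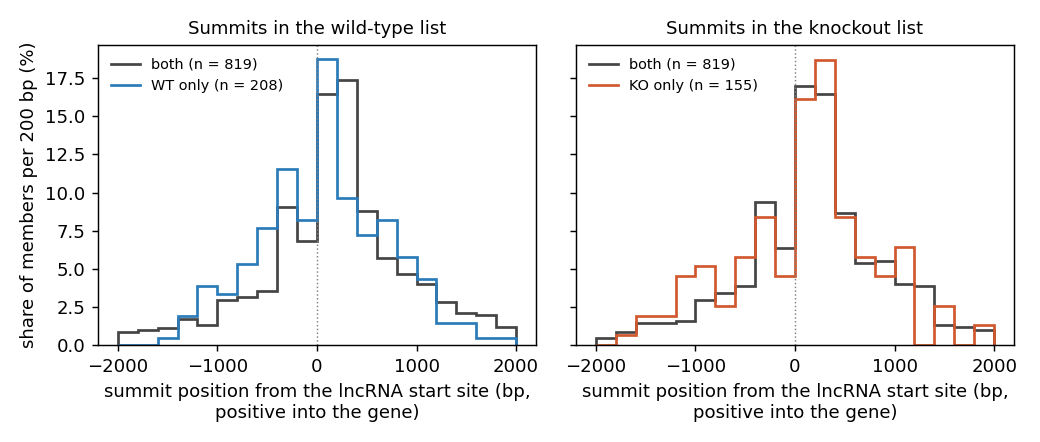
Summit position relative to the lncRNA start site (bp, positive into the gene) as a share of members per 200 bp, for the WT list (left) and the KO list (right). Members in both lists peak just downstream of the start (medians of 204 and 190 bp) and so do members of 1 list (114.5 bp for WT only, 164 bp for KO only); summits more than 2000 bp away are counted in the shares but lie outside the axis.

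Start windows of the members held few CG dinucleotides by the standard of coding genes. The median count in 300 bp was 5 for members in both lists, 4 for WT only and 4 for KO only, against 3 at 5375 lncRNA starts with no region within 1 kb and 13 at coding promoters. Windows with at least 55% G and C and an observed to expected CG ratio of at least 0.6 were called CpG-rich. They made up 9.40% of members in both lists (77 of 819, 7.49 to 11.6%), 3.23% of KO only (5 of 155, 1.06 to 7.37%) and 0 of 208 WT only members (up to 1.76%), against 0.688% of starts without a region and 41.4% of coding promoters. Over all 11574 lncRNA promoters, those near coding genes included, 10.7% (10.1 to 11.3%) were CpG-rich and the median count was 4. The share of members in both lists was thus not above that of lncRNA promoters at large. Read the other way, 77 of 82 CpG-rich members (93.9%) were in both lists, against 742 of 1100 others (67.5%). CpG-rich members in both lists also differed less in length, with medians of 2242 bp in WT and 2129 bp in KO and a median difference of −79 bp, against −205.5 bp for the others. A member had only to come within 1 kb of a start site, so that its window can lie outside its region. A gene boundary (start or end) lay inside the region for 62.5% of members in both lists, 31.5% of WT only and 37.5% of KO only.

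Short motifs were counted by their letters on both strands of the same windows. TGACTCA, the sequence bound by AP-1 factors such as Fos and Jun, occurred in 35 of 208 WT only windows (16.8%, 12.01 to 22.6%), 78 of 819 windows of members in both lists (9.52%, 7.60 to 11.7%) and 9 of 155 KO only windows (5.81%, 2.69 to 10.7%). It occurred in 6.18% of lncRNA starts with no region and in 5.22% of all promoters in the table. TGTGGT, the core bound by RUNX factors, which T cells use, occurred in 49 of 155 KO only windows (31.6%, 24.4 to 39.6%), 24.0% of WT only (18.4 to 30.4%), 21.9% of shared members (19.1 to 24.8%) and 20.9% of starts with no region, against 16.6% of all promoters. CTTTGA, the core bound by TCF and LEF factors, occurred in 26.5% of KO only, 22.1% of WT only and 19.7% of shared windows, with overlapping intervals. GGGCGG, bound by SP factors, occurred in 20.5% of shared windows, 14.8% of KO only and 25 of 208 WT only windows, against 6.25% of starts with no region and 35.9% of all promoters. The E-box CACGTG occurred in 10.1% of shared, 6.45% of KO only and 3.85% of WT only windows and in 7.20% of all promoters. GGAAGT of ETS factors was found in 205 of 819 shared, 40 of 155 KO only and 52 of 208 WT only windows, against 23.9% of all promoters, and CCAAT of NF-Y at 32.1%, 34.8% and 33.2% of these, against 37.6%. CCGGAAGT, which contains GGAAGT, occurred in 2.69% of shared, 0 of 155 KO only and 0.962% of WT only windows, against 3.91% of all promoters. TGACGTCA, the cyclic AMP response element, was at 1.22%, 0.645% and 2.88% in the same order, against 1.80%. The NRF1 motif was found in 2 shared windows and in none of the other classes, against 0.978% of all promoters. Of all 32619 promoters 21045 are coding. Over the 11574 lncRNA promoters the shares were 6.20% (AP-1), 20.1% (RUNX), 18.9% (TCF and LEF), 16.3% (SP), 5.90% (E-box), 21.9% (GGAAGT) and 35.9% (NF-Y). They were 1.58% for CCGGAAGT, 0.976% for TGACGTCA and 0.311% for NRF1. Of the 1182 windows, 45 repeat that of another member, and with each window counted a single time per class AP-1 matches stood at 16.0% (WT only), 9.53% (both) and 5.48% (KO only) and RUNX matches at 24.0%, 21.9% and 32.2%.

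**Figure D4:**
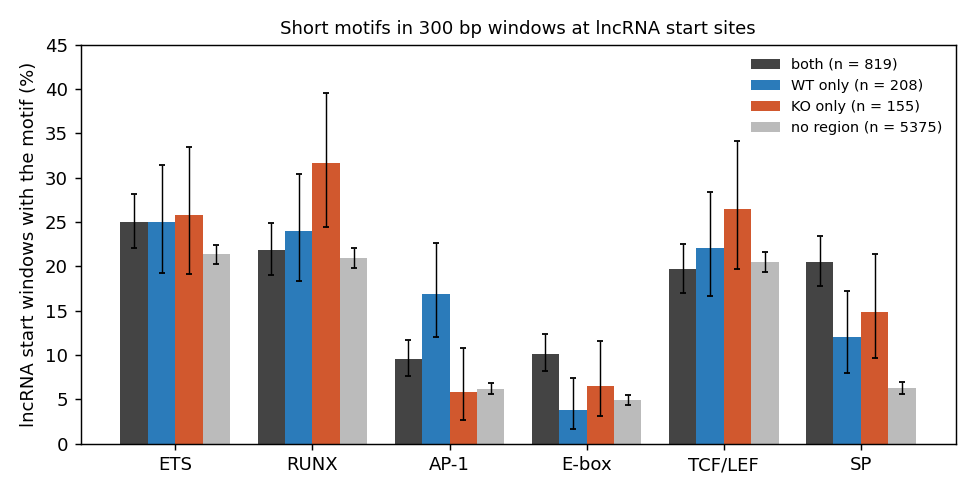
Share of lncRNA start windows of 300 bp with a match to each of 6 short motifs (%), by class of the member and for starts with no H3K4me3 region within 1 kb. Error bars are exact 95% intervals; the AP-1 motif is most frequent in WT only windows (16.8%) and the RUNX motif in KO only windows (31.6%).

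In the printed windows, 4930447K03Rik (WT only) held the AP-1, RUNX and NF-Y letters, and Gm2109 (WT only) the TCF and NF-Y letters. Gm19585 (KO only) held those of RUNX and ETS, Ifngas1 those of TCF and Mir155hg those of NF-Y. Snhg5 held the SP and NF-Y letters, Jpx the SP letters and the E-box, and Xist the ETS and NF-Y letters. These are matches of letters and not measured binding. The Jpx and Gm2109 windows lie mostly outside their regions, and the Mir155hg window wholly outside.

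Members at lncRNA genes known by name were mostly in both lists. Of 72 names looked up, 24 had a member, 23 had a region within 2.5 kb of a coding gene, 4 had a region of 6000 bp or more, 10 had no region at a boundary, 6 had another biotype and 5 were not in the table under that symbol. The 24 genes held 29 members, of which 24 were in both lists, 5 in KO only and 0 in WT only, with 9 of the 24 longer and 15 shorter in KO (median −96.5 bp). Over all regions under 6000 bp, 58% were in both lists, 22.6% WT only and 19.4% KO only. The lack of WT only members holds for these names alone, since among 120 members chosen from every lncRNA gene with a name of its own 11.7% were WT only and 10.8% KO only.

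At the X inactivation centre, all 4 members were in both lists. Xist (chromosome X, 103480588 to 103484224) had 3204 bp in WT and 3637 bp in KO, with summits of 35 and 52 reads. These summits lay at different places, 1907 bp into the gene in WT and at −278 bp, upstream of the start, in KO. Jpx, an activator of Xist, had a member of 1704 against 1894 bp at its start with folds of 31.2 and 35.1, and a smaller one of 924 against 806 bp upstream. Ftx, another noncoding gene of the centre, had 3453 and 3386 bp with folds of 33.8 and 35.4. Firre, an X-linked lncRNA with repeats that shapes nuclear organisation, had 2618 bp in WT and 2363 bp in KO. The lengths at Xist and Firre went opposite ways, by 433 bp and −255 bp (KO minus WT). With only the 20000 strongest regions of each list, the WT regions at Xist and at the upstream member of Jpx were lost, and both members became KO only.

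Members at the named hosts of small nucleolar RNAs were all in both lists. Snhg5 (chromosome 9, 88520576 to 88524125) had 3493 bp in WT and 3487 bp in KO, with 148 and 145 reads at the summit. Snhg15 had 3822 and 3326 bp, Snhg17 had 2910 and 2607 bp, and Snhg20 had 2534 and 2729 bp, with between 135 and 152 reads at each summit. Snhg4 had 3113 bp in WT and 3474 bp in KO. The largest difference in this group was −496 bp (KO minus WT), at Snhg15. Over all members in both lists the lower quartile was −502.25 bp.

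Of 4 members at hosts of microRNAs in the list of names, 2 were in both lists and 2 in KO only. Mir155hg, the host of miR-155, which is induced on activation of lymphocytes and myeloid cells, had 1609 bp in KO (chromosome 16, 84713126 to 84714734, fold 12.7, 45 reads at the summit) and 0 bp in WT. Mir17hg, the host of the miR-17 to miR-92 cluster, had 1473 bp in WT and 1713 bp in KO, with both summits upstream of the start in the table. Mir99ahg had 2474 and 2399 bp with folds of only 5.46 and 7.19. Mir124a-1hg, a host of a neuronal microRNA, had 468 bp in KO with a fold of 6.36 and 0 bp in WT.

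Immune lncRNAs went both ways. Ifngas1, which is transcribed near the interferon gamma gene in T and NK cells, had 1985 bp in KO (chromosome 10, 118554660 to 118556644, fold 6.08, 21 reads, Poisson interval 13.0 to 32.1) and 0 bp in WT. Morrbid, a regulator of Bcl2l11 in short-lived myeloid cells and in lymphocytes, had 4689 bp in WT and 4466 bp in KO at its start, which it shares with Gm36154, and 3235 against 1776 bp at its far end. Ptgs2os2, known as lincRNA-Cox2 and induced in macrophages, had 2885 bp in WT with 123 reads at the summit and 2205 bp in KO with 70. Mirt1 had 2 members in KO only, of 734 and 1470 bp. Neither these members nor Mir155hg lay within 100 kb of a gene of the cell type lists.

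Among nuclear, growth and stress lncRNAs, Neat1, the scaffold of paraspeckles, had 1403 bp in WT and 2348 bp in KO at its boundary of lower coordinate. The promoter table gave no strand for Neat1, so that this boundary was not assigned to its start or far end. In all 2 regions lay at Neat1 boundaries, and the other is not among the members named here. Norad, which sequesters Pumilio proteins, had 3572 and 3058 bp. Trp53cor1, a p53 target next to Cdkn1a, had 1945 and 1722 bp. Pvt1, which lies beside Myc, had 4052 bp in WT and 4180 bp in KO (chromosome 15, 62037255 to 62041442), with folds of 58.1 and 86.5. The −log10 q of this member was 2003.43 in WT and 1426.4 in KO, the opposite order to the folds. Its summit reads and local background could not be recovered in either list. At its other boundary Pvt1 had 1643 and 1492 bp, where the local background was 50.6 reads in WT and 20.3 in KO, far above the background of 2.85 and 2.62 reads at most summits. Miat had 4133 against 3584 bp at its far end and 285 against 535 bp near its start. The developmental lncRNAs Hotair and Carmn had 2512 against 3042 bp and 3384 against 2357 bp.

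Pvt1 also led the members with the highest fold in both lists. The next were BC002059 (folds of 50.6 in WT and 51.7 in KO), Gm39424 (49.1 and 54.2) and Oip5os1 (45.2 and 53.1), the last known as Cyrano, a conserved lncRNA that promotes decay of miR-7. The others were 4930578M01Rik, Gm34755, D130051D11Rik, the pair Gm38883 and Gm38882, Gm39827 and Gm4258, with WT folds from 42.6 to 49.1 and KO folds from 42.3 to 49.2. Their covered lengths differed by at most 715 bp, at Gm34755 (4399 bp in WT and 5114 bp in KO), which lies 7432 bp from Klrb1c, the gene of an NK cell receptor. Gm4258, 161122 bp from Ptprc, the gene of the leukocyte antigen CD45, had 3987 and 4052 bp. The nearest coding genes of those after Pvt1 were otherwise Gm51425 (BC002059), 1810010H24Rik (Gm39424), Chp1 (Oip5os1) and Tuba1a (4930578M01Rik). They were Wnt7b for D130051D11Rik, Zfp239 for Gm38883 and Gm38882, and Zfp692 for Gm39827.

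Among the 10 KO only members with the highest fold, 1, at Gm32249, lay within 100 kb of a gene of the T cell list. Gm19585 had 2 members, at its start (chromosome 17, 52148158 to 52153760, 5603 bp, fold 20.2, 72 summit reads) and at its far end (52160759 to 52164079, 3321 bp, fold 13.5, 48 reads). The nearest coding gene is Satb1, a chromatin organiser of T cells, 314868 bp away. Gm32249 (chromosome 11, 99167680 to 99172234) had 4555 bp and a fold of 15.2, and lies 12603 bp from Ccr7, the homing receptor of naive T cells. The pair Gm29945 and Gm11998 (chromosome 11, 11555588 to 11560230) had 4643 bp and a fold of 14.1. Gm13982, 73971 bp from Rasgrp1, a Ras activator downstream of the T cell receptor, had 2878 bp and a fold of 14.6.

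The other KO only members of this rank were shorter. Gm13842 had the highest fold, 21.8 with 78 summit reads, over 1644 bp (chromosome 5, 116028054 to 116029697), 3551 bp from Prkab1, a subunit of AMP-activated kinase. Gm51892 had 2708 bp and a fold of 16.6, and lies 2600 bp from Ifi47, an interferon-induced GTPase, close to the limit of 2.5 kb set by the rule. Gm41829 (1122 bp, fold 17.1) lies 14169 bp from Jak2, the cytokine receptor kinase. Gm41046 (1193 bp, fold 14.4) lies 26936 bp from Cd180, a receptor of B cells and myeloid cells, and Gm17250 (925 bp, fold 13.3) lies 50646 bp from the integrin gene Itga6. All 10 had 0 bp in WT, which the class fixes, so that their shared direction carries no information. The part of cell composition in these members was not tested.

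WT only members reached lower folds. The highest was 13.8 at Gm2109, with 52 summit reads in a short region of 406 bp (chromosome 9, 83691493 to 83691898). Next came Gm32360 (1010 bp, fold 10.9), 57007 bp from Rnd3, and Gm36183 (550 bp, fold 9.88), 32702 bp from Id4, a helix-loop-helix regulator. Gm51621 had the longest region of these, 2107 bp (chromosome 1, 45765551 to 45767657), with a fold of 9.62, equal to that of 4930447K03Rik (1224 bp). Gm31515, Gm41591, Gm36008, Gm39884 and Gm39359 had folds from 8.84 to 9.36 over 1087 to 1959 bp. Gm39359 lies 35372 bp from Smad3, the transducer of TGF-beta signals. The nearest coding genes of the others were Elovl4 (Gm2109), Wdr75 (Gm51621), Tubb2b (4930447K03Rik), Optc (Gm31515), 1700122O11Rik (Gm41591), Setd7 (Gm36008) and Accsl (Gm39884). Of the 10, 0 lay within 100 kb of a gene of the T cell list, as did only 29 of all 2378 members.

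Among members in both lists, the longest gains in KO were of 2486 bp and more. Gm1647 had 584 bp in WT and 4567 bp in KO, with 12 and 36 summit reads. Gm30235, 296742 bp from Foxo1, the transcription factor of naive T cells, had 295 bp and 4194 bp, with 10 and 42 reads. Gm33905 (572 and 3549 bp) lies 37061 bp from Il6st, the shared receptor chain of the interleukin-6 family. Gm19765 had 2493 and 5373 bp, Gm30603 had 440 and 3277 bp, Gm33104 (84818 bp from Ifngr1, a chain of the interferon gamma receptor) had 826 and 3419 bp, and Gm32276 had 1815 and 4377 bp. The pair AI847159 and Gm39932 had 1233 and 3719 bp, with 13 and 70 reads at the summit. The nearest coding genes of the others were Lfng (9101 bp from Gm30603), Slc20a1 (13474 bp from this pair) and Art2b (23404 bp from Gm19765). Those of Gm1647 and Gm32276 were Kpna4 (28880 bp) and Lrrc8c (34939 bp). In all 8 the KO fold within its list was at least 9.95 and the WT fold at most 6.24. Members were picked here by the covered length of the same regions, so that these folds are no separate check.

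The longest losses were smaller than the longest gains. The pair 4930527F14Rik and LOC115488342 had 3767 bp in WT and 929 bp in KO, with 34 and 17 summit reads. LOC102640985 had 3364 and 722 bp with 54 and 27 reads. Gm40477, 35915 bp from Fos, a subunit of AP-1, had 3858 and 1324 bp with 34 and 17 reads. Gm46293, 6374 bp from Col1a1, the collagen gene of fibroblasts, had 3003 and 616 bp. Gm13387 (34787 bp from Nrarp), Gm34606, Gm35995 and Gm32002 had between 2530 and 3710 bp in WT and between 327 and 1539 bp in KO. Ctso lies 13663 bp from LOC102640985, and Ddhd1 26484 bp from the pair 4930527F14Rik and LOC115488342. The nearest coding genes of Gm34606, Gm35995 and Gm32002 were Ergic1 (24229 bp), Rhou (31626 bp) and Rasl11b (33093 bp). Fibroblast and endothelial markers were marked in 14 of 20 cases in WT and 16 of 20 in KO, which leaves fold aside. Among those in both lists, WT had the higher fold at Prrx1 (37.4 against 21.3), Twist1 (34.6, 22.1), Twist2 (34.3, 18.2) and Col3a1 (29.1, 17.4). So it did at Pdgfra, Col1a1, Pdgfrb, Pecam1 and Cdh5, and KO had the higher fold at Fn1, Dcn, Foxc1 and Kdr. Folds are not scaled between libraries, and the part of cell composition was not tested.

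Members near cell type genes were counted last, taking the nearest gene of each list within 100 kb. Near 20 T cell genes lay 29 members, of which 12 were in both lists, 10 in KO only (34.5%, 17.9 to 54.3%) and 7 in WT only. Of all 832 regions within 100 kb of T cell genes, 374 were KO only and 90 (10.8%) WT only, against 19.4% and 22.6% genome-wide. Near myeloid genes 13 of 16 members were in both lists, 1 in KO only and 2 in WT only (66.1%, 13.4% and 20.5% of all regions near these genes), and of the 13, 4 were longer and 9 shorter in KO. Near epithelial and mammary tumour genes 10 of 12 were in both lists, 2 in WT only and 0 in KO only (69.2%, 19.9% and 10.9% of all regions near these genes), and all 10 were shorter in KO. The intervals of these class shares are wide and hold the shares of all regions nearby. Of all members in both lists 72.0% were shorter in KO, as were 66.1% of all regions in both lists. The 12 members near epithelial and mammary tumour genes lay near only 6 genes of that list. Of 6 members near B cell genes 3 were in both lists, 2 in WT only and 1 in KO only (46.2%, 22.6% and 31.1% of all regions nearby), and both of the 2 members near fibroblast and endothelial genes were in both lists and shorter in KO. Members near T cell genes did not share a direction, as 7 were in WT only and, of the 12 in both lists, 5 were longer and 7 shorter in KO.

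**Figure D5:**
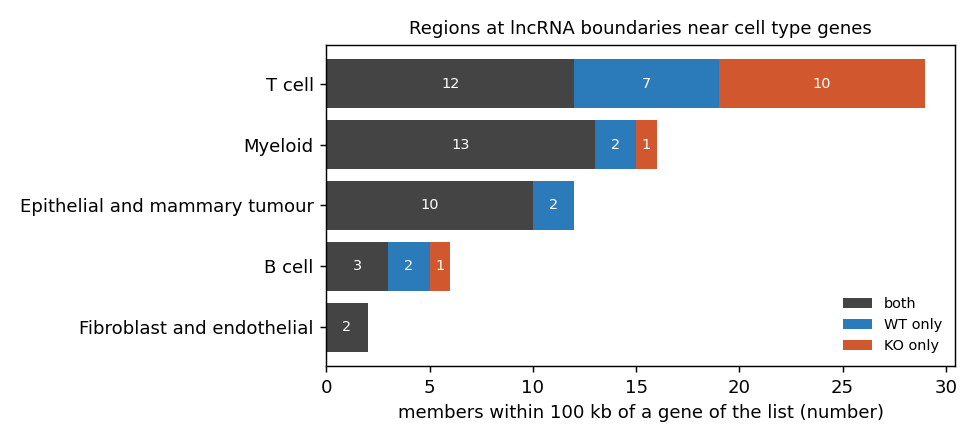
Number of regions at lncRNA boundaries within 100 kb of a gene of each cell type list, split by class. The T cell list has 10 KO only, 7 WT only and 12 shared members, and the other lists have 0 or 1 KO only member each.

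Close to T cell genes, Gm42329, 2504 bp from Id3, had 1362 bp in WT and 1194 bp in KO. A430093F15Rik, 3920 bp from Cd6, had 3667 and 4186 bp, and Gm32803, 7109 bp from the adhesion gene Cd2, had 2105 and 2883 bp. The lncRNA 2310016D23Rik, 5873 bp from the co-stimulatory receptor gene Cd28, had 0 and 618 bp, with a fold of 3.87. Gm30217 had 3 KO only members, of 314, 301 and 1445 bp, the nearest 23176 bp from Tcf7, the transcription factor of naive and stem-like T cells. Cd6 itself had no WT region within 1 kb of a boundary. Near myeloid genes, Gm35724 and Gm51475, 5382 bp from the granulocyte factor gene Cebpa, had 2195 and 1260 bp, A530013C23Rik near Cebpb had 1407 and 1546 bp, Gm41699 near Cd14 had 2396 and 1836 bp, and Gm32029, 3581 bp from Tyrobp, had 0 and 608 bp.

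Near the keratin genes Krt8 and Krt18, Gm41404 had 3 members. The member over its start had 2531 bp in WT and 914 bp in KO. The others, of 931 bp outside the gene upstream of the start and of 498 bp at the far end, were in WT only. Gm41405 beside it had 1523 bp in WT and 522 bp in KO. Gm33579, 65782 bp from Foxf1, a factor of mesenchyme and endothelium, had 1971 and 820 bp. Near B cell genes, D7Ertd128e, 6279 bp from Cd22, had 1066 and 1912 bp, Gm38965 near Cd79a had 2 WT only members of 811 and 339 bp, and Gm36809, also near Cd79a, had 2318 and 1533 bp.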

How the data were processed

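MACS2 and the GRCm38 (mm10) build are named in the submitters' processing notes; the version, settings, aligner and any use of input were not given in the sources used here. Every region carries the deposited fold, a ratio of reads at the summit to local background. Beside it stand the deposited −log10 p and −log10 q, and a deposited score that was not used. No value was scaled between libraries. The lowest deposited −log10 q was 2.00 (WT) and 2.02 (KO). Samples of H3K27me3 and of input were not analysed here.

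Regions were merged with a gap of 0 bp. Summit reads were recovered from fold = (reads + 1)/(background + 1) and a Poisson p (tolerance 0.001 on the −log10 p) for 2049 of 2050 WT and 1873 of 1876 KO members. Gene positions, start sites and windows came from RefSeq tables of GRCm38.p6. Distances run from a region to the nearest base of a gene. Covered length is in bp, fold and reads are those of the region with the highest −log10 p in a member, and shares carry exact (Clopper-Pearson) 95% intervals. Members and lists were chosen with earlier results of these data known. Named members are those at a list of lncRNA names, the 10 with the highest fold in each class (for both, the smaller of the 2 folds), the 8 longest gains and losses, and up to 4 nearest to each of 5 cell type lists. Merging and membership were tested on simulated data. Intervals used SciPy 1.17.1, tables pandas 2.3.3 and NumPy 2.4.6, and plots Matplotlib 3.10.9, under Python 3.11.15. Sequence windows are from the promoter table in place of windows around summits, as no genome was used.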

Additional observations from a re-analysis of the deposited data

How the results depend on the processing

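Members were chosen again in 11 other ways. Members numbered 1063 with 20000 regions per list and 120 for lncRNA genes with a name of their own, against 2378. The share in both lists was 68.5% with a window of 500 bp, 61.7% with 2000 bp, 62.0% with 20000 regions per list, 54.6% where each list had to cover 50% of the region, and 77.5% for named genes. The WT only share was 18.8% with 500 bp, 23.7% with 2000 bp, 19.03% with −log10 q from 5 up, 28.6% with 50% covered and 11.7% for named genes. The KO only share was 16.4% with −log10 q from 10 up, 15.9% with 20000 regions, 16.8% with 50% covered and 10.8% for named genes. WT only exceeded KO only in all 11, though for named genes the intervals overlap (6.53 to 18.8% and 5.90 to 17.8%). The median length difference was −175.5 bp with 50% covered and −101 bp for named genes, and stayed below 0 in all 11. Of 91 named members, the length difference turned at Mir99ahg (2399 bp with −log10 q from 10 up), and with 20000 regions per list at Jpx (806 bp, upstream member) and D7Ertd128e (−1066 bp). In 14 other cases over these settings the size moved without a change of direction, among them Xist (3637 bp with 20000 regions per list), where the WT region was lost. With 20000 regions per list 29 of the 91 had no region left. No paired analysis was possible because each genotype has 1 library.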

Other observations

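Regions of 6000 bp and more at lncRNA boundaries, left out by the width limit, numbered 35. Of these, 33 were in both lists, 2 in KO only and 0 in WT only. Of all regions of 4000 to 6000 bp, the widest band counted, 95.2%, 4.82% and 0% were in these classes. With KO only regions counted as longer, 17 of the 35 were longer and 18 shorter in KO. Of all regions under 6000 bp in both lists, 33.7% were longer and 66.1% shorter. The widest of the 35 was a KO only region of 22950 bp at Gm41331 (chromosome 15, 60165491 to 60188440, fold 26.0), and the other KO only region spanned 8626 bp at Gm46762. At AW112010, an interferon-induced gene of immune cells annotated as noncoding, the covered length was 5003 bp in WT and 9910 bp in KO, and at the pair Gm26740 and C920009B18Rik it was 6201 and 13346 bp. Malat1, an abundant nuclear lncRNA, had 11825 bp in WT and 12403 bp in KO, Dleu2 had 9205 and 9450 bp, Lncpint 7081 and 7030 bp, and Mir22hg 6155 and 5673 bp. These were chosen by width or name after their values were seen.

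At lncRNA genes that hold a microRNA hairpin within 10 kb lay 24 members, of which 20 were in both lists, 4 in KO only and 0 in WT only. Over all regions under 6000 bp these shares were 58%, 19.4% and 22.6%. Of the 20, 9 were longer and 11 shorter in KO, against 33.7% and 66.1% of all regions in both lists. The following were named after their values were seen. Mirc35hg, with Mir182, Mir183 and Mir96, had 1771 bp in WT and 3433 bp in KO. C430049B03Rik, with Mir322 and Mir503, had 2525 and 3403 bp. Mir670hg, with 1479 and 667 bp, and Gm40277, with 1351 and 560 bp, were shorter in KO. Gm13648, with Mir200a, Mir200b and Mir429, microRNAs of epithelial cells, had 701 and 835 bp with folds of 3.90 and 4.42. Gm36493, with the immune microRNA Mir146b, had 731 bp in KO with a fold of 4.48 and 0 bp in WT, and F630028O10Rik, with the myeloid Mir223, had 346 bp with a fold of 3.04 and 0 bp.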
